A study of Mus musculus with 2 samples.

Results

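The stathmins, the neuronal pentraxins and Bex1 are 8 genes best known from neurons whose RNA levels were compared between control and Mll1 cKO primary myoblasts. They were chosen by their gene symbols (Stmn1, Stmn2, Stmn3, Stmn4, Nptx1, Nptx2, Nptxr and Bex1), and the list was drawn up from earlier results on the same arrays, so that the large differences of Stmn2, Nptx1 and Bex1 are what selected them and are given below as a description. Of the 8 genes, 7 had at least 1 probe set that carried their symbol alone, with 9 probe sets in all, among 21789 such probe sets of 19938 genes and 35557 probe sets deposited. Nptxr had none of its own.

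Stathmins are small phosphoproteins that bind free tubulin dimers and destabilise microtubules, and phosphorylation of a stathmin releases its tubulin. Stmn1 is the cytosolic form of dividing cells, whereas Stmn2, Stmn3 and Stmn4 are anchored to membranes and are found mainly in growing or mature neurons. The neuronal pentraxins Nptx1 and Nptx2 are secreted proteins that gather AMPA-type glutamate receptors at synapses, and Nptxr is their membrane-bound relative. Bex1 encodes a small, largely unstructured protein from a family of X-linked genes that is abundant in brain and binds the neurotrophin receptor p75NTR, and it has also been described in regenerating muscle. Stmn2 is a textbook target of REST, the repressor that binds RE1 elements and keeps neuronal genes silent outside the nervous system.

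Both cultures were Rosa-CreER / MLL1 fl/fl myoblasts, the proliferating progeny of satellite cells, the stem cells of skeletal muscle. Per the study's methods the cells came from hind limb muscle of young mice of mixed 129SV and C57BL/6 background and were purified by depletion of CD11b, SCA1, CD45 and CD31 positive cells and selection for α7-integrin. Cre in these cells is fused to a modified estrogen receptor and expressed in all cells from the Rosa26 locus, and it excises floxed Mll1 sequence once 4-hydroxytamoxifen (4-OHT) is added. Both groups carried the floxed alleles and the Cre, and both grew in Ham's F10 supplemented with FBS (20%) and FGF (5 ng/ml). The control group received 0.01% EtOH for 7 days, and the group labelled MLL1 KO (Mll1 cKO) received 500 nM 4-OHT in 0.01% EtOH for 7 days. The labels give 3 further days without either agent, and the study's methods give a shorter interval. Since the control did not receive 4-OHT, effects of the drug and of the deletion cannot be told apart.

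Each group was measured on 1 array (Affymetrix MoGene 1.0 ST), which leaves no measure of spread between cultures and no test, and a single array bounds how precise each value below can be. All values are log2 signals after RMA, differences are Mll1 cKO minus control, and folds were taken from the differences. The median log2 difference of the 19938 genes was -0.05, and their 5th and 95th percentiles were -0.48 and 0.58. As a guide to low signals, the 1035 probe sets of odorant receptors, a family used mainly by olfactory neurons though not by them alone, had a median of 3.23 in control and 3.11 in Mll1 cKO myoblasts, with 5th to 95th percentiles of 2.35 to 4.90 and of 2.33 to 4.62. Kmt2a, which encodes MLL1, gave 9.44 in control and 9.66 in Mll1 cKO myoblasts. That signal summarises probes spread along the transcript and is not resolved to the floxed exons, so it checks nothing about the deletion. The study itself assessed the deletion by RT-qPCR, and reported loss of MLL1 protein by western blot and immunostaining. The myoblast genes Myod1 (12.15 and 12.27), Des (11.58 and 11.49) and Pax7 (10.29 and 10.02) had high log2 signals in the control and Mll1 cKO arrays, respectively.

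Promoter sequence was held by the RefSeq promoter table (GRCm38.p6) for 2 of the 8 genes, Bex1 and Stmn3. The 250 bases before the start of each gene are shown. The first belongs to a gene with a large difference and the second to a stathmin without one. Bex1 and Stmn3 are of different families, so the 2 windows are no matched comparison. They are written 5′ to 3′ on the strand of the gene, with CpG dinucleotides, the sites of DNA methylation, in capitals. The Bex1 window is chrX:136215514-136215763 and the Stmn3 window is chr2:181314501-181314750, both on the minus strand.
Bex1: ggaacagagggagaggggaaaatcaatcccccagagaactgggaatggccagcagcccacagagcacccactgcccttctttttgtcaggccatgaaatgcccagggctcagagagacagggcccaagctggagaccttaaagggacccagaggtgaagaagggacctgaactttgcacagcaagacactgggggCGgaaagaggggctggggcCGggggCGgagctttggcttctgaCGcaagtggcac
Stmn3: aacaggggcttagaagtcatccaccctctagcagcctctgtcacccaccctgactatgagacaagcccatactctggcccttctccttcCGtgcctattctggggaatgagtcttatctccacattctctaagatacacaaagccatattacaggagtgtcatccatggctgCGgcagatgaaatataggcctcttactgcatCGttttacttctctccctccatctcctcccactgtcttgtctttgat
The Bex1 window held 4 CpG and 59.6% G and C, and the Stmn3 window held 3 CpG and 48.8% G and C. Over the same window of 32851 promoters of 27025 genes the median was 6 CpG and 52.4% G and C, and 62.2% of these promoters held as many CpG as Bex1 or more and 71.0% as many as Stmn3 or more. Of the 4 motifs searched on both strands, GGGCGG, the core of the GC box, occurred 2 times before Bex1 and 0 times before Stmn3, and 32.7% of all promoters held it. CANNTG, the E-box that MYOD and related factors bind, occurred 1 time in each window, and 66.2% of all promoters held it. TATAAA and CCAAT were in neither window, against 12.4% and 33.8% of all promoters. Matches of so few letters are a description of the sequence and not of factor binding, which the arrays did not measure.

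Stmn2, Nptx1 and Bex1 had higher signals in the Mll1 cKO array than in the control array by more than the 2-fold cut-off of the study's methods, and the remaining 4 measured genes stayed within it. Thus 3 of 7 genes were over 2-fold higher, while 1.16% of all 19938 genes were, and 0 of 7 were over 2-fold lower, while 0.11% of all genes were. Because the 3 were selected on this same difference, the shares show how large the values were and support nothing further. The smallest difference over the cut-off was that of Bex1 (1.36) and the largest in size within it was that of Stmn4 (-0.50). In RNA from a whole culture, fewer cells of a type and less RNA per cell cannot be told apart.

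**Figure D1:**
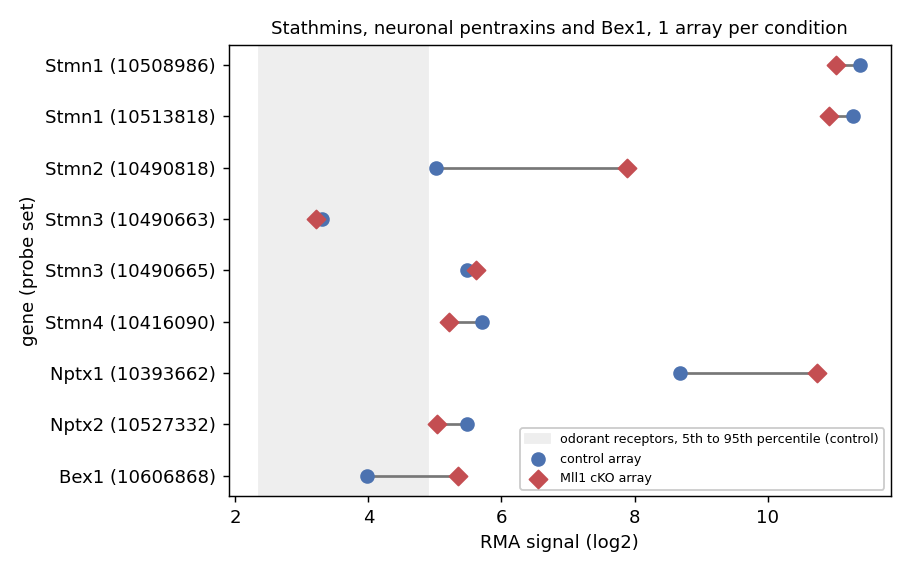
RMA signal (log2, x axis) of each of the 9 probe sets of the stathmins, neuronal pentraxins and Bex1 in the control array (circles) and the Mll1 cKO array (diamonds), joined by a line, with the 5th to 95th percentile of odorant receptor probe sets in the control array (2.35 to 4.90) in grey. Stmn2, Nptx1 and Bex1 lie to the right in the Mll1 cKO array, and both Stmn1 probe sets, Stmn4 and Nptx2 lie to the left.

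Among the stathmins, Stmn2, the membrane-anchored form of neuronal growth cones also known as SCG10, was at 5.02 in control and 7.89 in Mll1 cKO myoblasts on the log2 scale (probe set 10490818). The difference of 2.87 is 7.33-fold and ranked 3 from the highest of the 21789 probe sets. The control signal lay just above the range of the odorant receptors and the Mll1 cKO signal well above it. Of the 2179 probe sets in the same decile of mean signal, 1 other, that of Timp3, was as far in the same direction.

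Stmn1, the stathmin of dividing cells, had 2 probe sets that moved by nearly the same amount. Probe set 10508986 had log2 signals of 11.39 in the control and 11.02 in the Mll1 cKO array, and probe set 10513818 had 11.28 and 10.92. Their differences of -0.37 and -0.36 average to -0.36, or 1.29-fold lower in Mll1 cKO myoblasts. The gap of about 0.01 between the 2 differences was small against the median gap of 0.14 over the 777 genes with 2 probe sets of their own. Of the 2179 probe sets in the same decile of mean signal, 112 others were as far below 0 as the first probe set and 123 as far as the second. Both stayed well inside the 2-fold cut-off.

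Stmn3 and Stmn4, the other membrane-anchored neuronal stathmins, did not share the difference of Stmn2. For Stmn3, probe set 10490665 had log2 signals of 5.48 in the control and 5.62 in the Mll1 cKO array, a difference of 0.14. The other Stmn3 probe set, 10490663, had signals of 3.31 and 3.21, both close to the median of the odorant receptors, and a difference of -0.09. The 2 Stmn3 probe sets thus disagreed in sign, and their mean of 0.02 carries no direction. Stmn4 had log2 signals of 5.71 in the control and 5.21 in the Mll1 cKO array, a difference of -0.50 or 1.42-fold lower. It ranked 922 from the lowest of the 21789 probe sets, and 128 of the others in its decile of 2178 probe sets were as far below 0. Genes of low signal tended to differences below 0 on these arrays, since the median was 0.06 over the 10257 genes with a mean signal over 6 and -0.05 over all genes. With the trend of the difference on signal removed, Stmn4 was at -0.35.

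Of the pentraxins, Nptx1, secreted by neurons and concentrated at excitatory synapses, was at 8.68 in control and 10.75 in Mll1 cKO myoblasts on the log2 scale (probe set 10393662). The difference of 2.07 is 4.19-fold and ranked 19 from the highest of the 21789 probe sets. Both signals lay far above the range of the odorant receptors, so the control culture already gave a clear Nptx1 signal. Within its decile of mean signal, 1 other probe set of 2179, that of Cd24a, was as far in the same direction.

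Nptx2, also known as Narp and induced by activity in neurons, went the other way by a small amount. Its log2 signal was 5.48 in the control and 5.04 in the Mll1 cKO array, a difference of -0.45 or 1.36-fold lower. In its mean-signal decile of 2180 probe sets, 299 others were as far below 0, and with the trend on signal removed the difference was -0.26. Nptxr was represented only in probe set 10430626, which the array annotation gives to Npcd, Cbx6 and Nptxr together. That probe set had log2 signals of 7.47 in the control and 7.35 in the Mll1 cKO array, a difference of -0.12, and the value cannot be assigned to any of the 3 genes.

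Bex1 was at 3.98 on the log2 scale in control myoblasts, within the range of the odorant receptors, and at 5.34 in Mll1 cKO myoblasts, above that range (probe set 10606868). The difference of 1.36 is 2.57-fold and ranked 87 from the highest of the 21789 probe sets. The study's methods asked for a signal over 8 in the higher array when listing raised genes and over 7 when listing lowered ones. Of the 3 genes only Nptx1 exceeded 8, Stmn2 at 7.89 exceeded 7 alone, and Bex1 exceeded neither. The study's partial list of raised genes nonetheless includes Stmn2 at 7.89, and does not include Nptx1 or Bex1. That list was limited to a fixed number of the most raised genes. Its last entry, Krt18, was 4.22-fold higher, just above Nptx1 at 4.19-fold. Of the 2178 probe sets in its decile of mean signal, 3 others, those of Trdn, Tecrl and Plscr2, were as far in the same direction. A further probe set, 10601850, is annotated to Bex4 and Bex1 together, and its log2 signals of 3.12 in the control and 3.31 in the Mll1 cKO array both lay within the range of the odorant receptors. Its difference of 0.20 therefore did not repeat that of the probe set of Bex1 alone. The BEX genes are close in sequence, and signal shared between their probes was not tested.

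**Figure D2:**
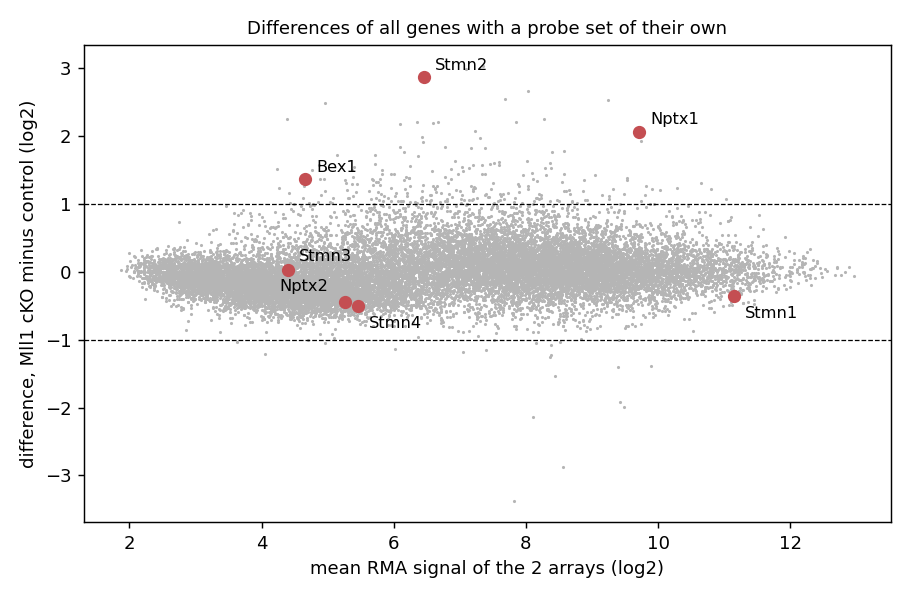
Difference between the arrays (Mll1 cKO minus control, log2, y axis) against the mean RMA signal of both arrays (log2, x axis) for 19938 genes (grey points), with the 7 measured genes in red and the 2-fold cut-off as dashed lines. Stmn2 (2.87), Nptx1 (2.07) and Bex1 (1.36) lie above the upper line, and Stmn1, Stmn3, Stmn4 and Nptx2 lie between the lines.

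The genes with a log2 signal over 7 in the higher array whose differences were closest to those of Stmn2, Nptx1 and Bex1 were looked up as a description over the same 2 arrays. Closest to Stmn2 were Timp3 (2.99), an inhibitor of matrix metalloproteases, Slc40a1 (3.03), the iron exporter ferroportin, and Dlk1 (2.67), an imprinted membrane protein related to Notch ligands. Closest to Nptx1 were Krt18 (2.08), a keratin of simple epithelia, Lilr4b (1.99), an immune receptor, and Uchl1 (1.98), a ubiquitin hydrolase abundant in neurons. Bex1 was matched most closely by Rnasek (1.36), Sema3d (1.37), a secreted axon guidance protein, and Jup (1.35), the junction protein plakoglobin.

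Genes next to each of the 8 on its chromosome were compared as well, by a rule chosen after the values of the 8 were seen. For each, the 3 nearest protein-coding genes with a probe set of their own on either side were taken in RefSeq order. None of the 48 neighbours was over 2-fold in either direction, and their differences ran from -0.87 to 0.62. Of all genes, 1.16% were over 2-fold higher and 0.11% over 2-fold lower, so the count says little about the neighbours. Around Stmn2 they were Pkia (-0.40), Zc2hc1a (-0.03), Il7 (0.13), Hey1 (0.08), Mrps28 (-0.87) and Tpd52 (0.34). Around Nptx1 they were Slc26a11 (0.30), Rnf213 (-0.12), Endov (-0.12), Rptor (0.29), Chmp6 (-0.14) and Baiap2 (0.47). The measured neighbours of Stmn2 and Nptx1 thus stayed within 2-fold, as most genes did. Bex1 lies among its own relatives, Bex4 (0.13), Tceal8 (-0.02), Tceal5 (-0.11), Tceal9 (-0.41) and Bex3 (0.12). The remaining neighbour, Kir3dl2 (-0.40), is not of that family. Bex4, Tceal5 and Kir3dl2 had signals within the odorant receptor range in both arrays.

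**Figure D3:**
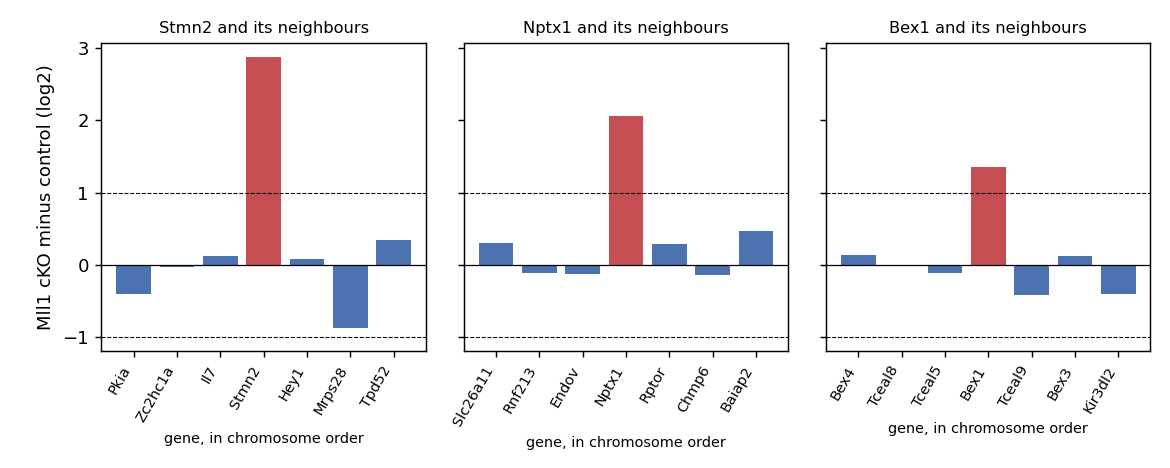
Difference between the arrays (Mll1 cKO minus control, log2, y axis) of Stmn2, Nptx1 and Bex1 (red bars) and of the 3 nearest measured protein-coding genes on either side (blue bars), in chromosome order, with the 2-fold cut-off as dashed lines. The red bars reach 2.87, 2.07 and 1.36, and the blue bars stay between -0.87 and 0.47.

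Proteins that act on or with stathmins were followed as 3 lists. Over all genes, the shares to set beside these and later lists were 41.6% higher, 55.6% lower, 1.16% over 2-fold higher and 0.11% over 2-fold lower. Of 25 kinases and phosphatases that can act on stathmins, 21 were measured, 8 higher and 13 lower, with 0 over 2-fold and a median difference of -0.05, the same as that of all genes. The largest difference was that of Mapk13, a stress kinase that phosphorylates stathmin, with log2 signals of 6.33 in the control and 7.28 in the Mll1 cKO array (0.95, 1.94-fold higher). Cdk1 (11.32 and 10.83) and Aurkb (10.81 and 10.11), mitotic kinases of Stmn1, were lower by less than 2-fold, and Cdk5 (8.99 and 9.50), a kinase of neurons and muscle, was higher by less than 2-fold.

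Tubulins, the binding partners of stathmins, were measured for 16 of 19 genes, with 8 higher, 8 lower and a median difference of 0.01. Only Tubb3, the tubulin used as a marker of neurons, was over 2-fold, with log2 signals of 5.83 in the control and 7.03 in the Mll1 cKO array (1.20, 2.29-fold higher). Tuba1a (11.43 and 11.40) and Tubb5 (12.30 and 12.18) differed little. Of 37 microtubule stabilizers, depolymerizers and severing proteins, 35 were measured, 19 higher and 16 lower, with a median of 0.01. Dclk1, a doublecortin-like kinase that binds microtubules, was over 2-fold higher (6.01 and 7.24, difference 1.24, 2.35-fold). Map1a (0.80), Map2 (0.76) and Mapre3 (0.74) were higher and Kif2c (-0.65) and Mapt (-0.60) lower, all within 2-fold.

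The partners and relatives of the neuronal pentraxins stayed within 2-fold, as most genes did. All 5 other pentraxins, which serve in immune defence or adhesion, were measured, 1 higher and 4 lower, with 0 over 2-fold and a median of -0.07. The largest difference was that of Svep1, at 5.02 in the control and 4.48 in the Mll1 cKO array (-0.54), and Ptx3 was at 3.49 and 3.46. Ptx3, Crp, Apcs and Ptx4 lay within the odorant receptor range in both arrays, where a difference is hard to see. Of 17 partners, among them the AMPA receptor subunits, 7 were higher and 10 lower, with 0 over 2-fold and a median of -0.09. Gria3 had log2 signals of 9.34 and 9.72, whereas Gria1 (4.32 and 4.15), Gria2 (3.11 and 3.19) and Gria4 (3.59 and 3.56) stayed within the odorant receptor range in both arrays. Dlg4, the synaptic scaffold PSD-95, came closest to the cut-off (7.98 and 8.88, difference 0.90, 1.87-fold higher), and Adam17, a protease that sheds Nptxr, was at 9.49 and 9.31.

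Of 11 other BEX and TCEAL genes, the X-linked relatives of Bex1, 9 were measured, 5 higher and 4 lower, with a median of 0.12. One was over 2-fold higher, Tceal1, at 6.47 in the control and 7.59 in the Mll1 cKO array (1.13, 2.18-fold). Bex2 (3.34 and 3.48), Bex4 (2.89 and 3.02) and Bex6 (3.22 and 2.97) were within the odorant receptor range in both arrays, and Bex3 (9.75 and 9.87), which also binds p75NTR, was far above it. Bex1 was the only BEX gene measured with a difference over 2-fold. In the neurotrophin receptor list 12 of 16 genes were measured, 5 higher and 7 lower, with 0 over 2-fold and a median of -0.10. Nradd, a relative of p75NTR, differed most (9.39 and 10.06, difference 0.67, 1.59-fold higher), and Ngfr, which encodes p75NTR itself, was at 6.69 and 6.85.

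REST itself and its corepressors, which hold Stmn2 and other neuronal genes silent in other tissues, differed little. Of 16 genes 15 were measured, 7 higher and 8 lower, with 0 over 2-fold and a median of -0.01. Rest had log2 signals of 9.01 in the control and 9.20 in the Mll1 cKO array, and the largest difference was that of the corepressor Rcor3 (8.40 and 8.84, difference 0.43, 1.35-fold higher). Of 30 other neuronal genes with RE1 elements 26 were measured, 8 higher and 17 lower, with a median of -0.10, and Tubb3 was the only one over 2-fold. Snap25 (4.86 and 5.76), Scg2 (5.46 and 6.32) and Rab3a (5.37 and 6.18), which serve in the release of vesicles, were higher by less than 2-fold. Other genes of secretion, among them Syt4 (4.97 and 4.52), Chgb (4.42 and 4.13) and Unc13a (5.36 and 5.19), were lower by less than 2-fold. Syp (5.08 and 5.08) was level, and the control signal of Snap25 lay within the odorant receptor range. With the 5 genes of mean signal over 6 alone the median was 0.42.

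**Figure D4:**
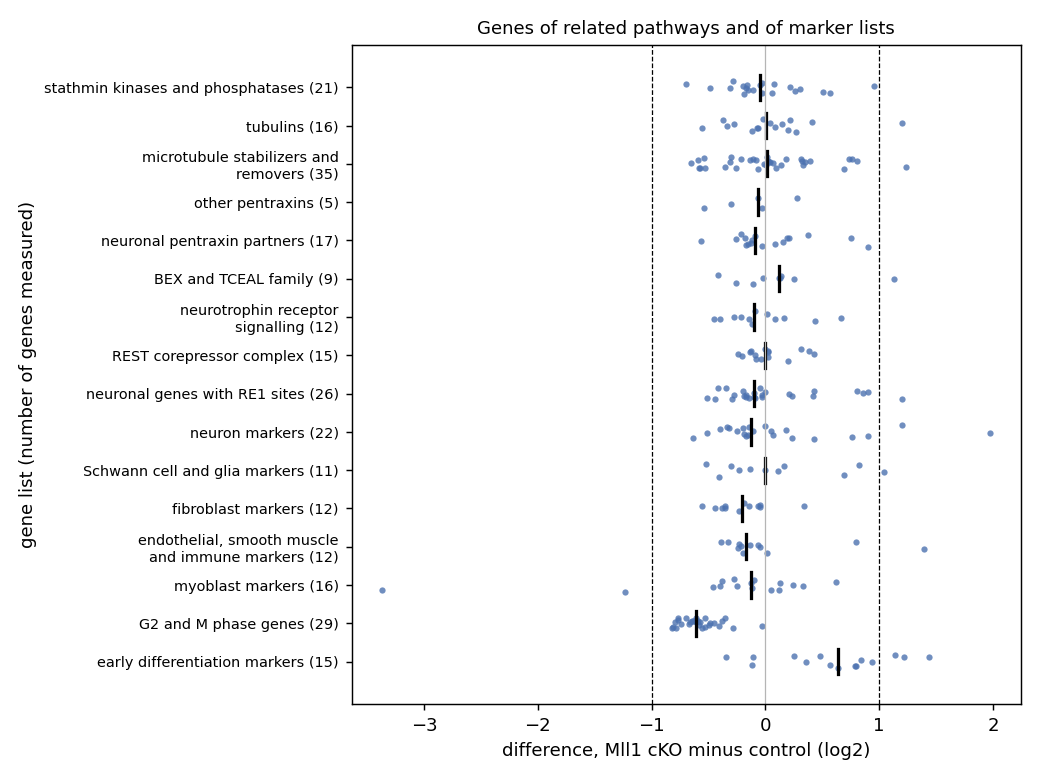
Difference between the arrays (Mll1 cKO minus control, log2, x axis) of every measured gene (points) of 16 lists (y axis, number measured in brackets), with the median of each list as a black bar and the 2-fold cut-off as dashed lines. Medians lie between -0.21 and 0.12 in 14 lists, at -0.60 for the G2 and M phase genes and at 0.64 for the early differentiation markers.

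Markers of neurons and of other cells were compared because the large differences were in genes known from neurons. Of 24 neuron markers 22 were measured, 9 higher and 12 lower, with a median of -0.13. Uchl1 (6.32 and 8.29, difference 1.98, 3.93-fold higher) and Tubb3 were over 2-fold higher. Within 2-fold, Snap25 (4.86 and 5.76), Map2 (difference 0.76), Nefl (8.81 and 9.24) and Nefm (7.38 and 7.61) were higher in the Mll1 cKO array. Also within 2-fold, Rbfox3 (5.22 and 4.97), Elavl3 (5.42 and 4.78), Elavl4 (3.46 and 3.36) and Syt1 (5.09 and 4.77) were lower. Nefh was lower within 2-fold as well (difference -0.51), opposite in direction to Nefl and Nefm. The 6 neuron markers whose mean signal exceeded 6 had a median of 0.59, so the sign of the list depends on that filter. Tubb3, Nefl, Nefm and Nefh are among these markers and also among the RE1 genes of that signal. Of 13 Schwann cell and glia markers 11 were measured, 5 higher and 5 lower, with a median of 0.00. Fabp7, a fatty acid binding protein, was over 2-fold higher (9.21 and 10.26, 2.06-fold). Egr2 (5.68 and 6.50, difference 0.82) and Pmp22 (8.30 and 8.99, difference 0.69) were higher within 2-fold, Sox10 (5.53 and 5.23) was lower and S100b (4.71 and 4.71) was level. The 5 of these markers whose mean signal exceeded 6 had a median of 0.69.

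All 12 fibroblast markers were measured, 1 higher and 11 lower, with 0 over 2-fold and a median of -0.21, while 55.6% of all genes were lower. The largest difference was that of Dpt (3.74 and 3.18, -0.55). Of 12 endothelial, smooth muscle and immune markers 3 were higher and 9 lower, with a median of -0.17. Cd68, a lysosomal protein of macrophages and other cells, was over 2-fold higher (6.08 and 7.47, difference 1.39, 2.62-fold), while the immune marker Ptprc (3.83 and 3.69) and the endothelial marker Pecam1 (5.08 and 5.03) were not. With the 3 genes of mean signal over 6 alone the median of that list was 0.80. What part the neuron, glia and immune markers have in the differences of Stmn2, Nptx1 and Bex1 was not tested.

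Lists that describe the state of the myoblasts also differed between the arrays. Of 16 myoblast markers 6 were higher and 10 lower, with a median of -0.12. Myf5 (9.51 and 6.14, difference -3.37, 10.3-fold lower) and Fgfr4 (difference -1.23, 2.34-fold lower) were over 2-fold lower. All 29 measured G2 and M phase genes of 30 were lower, from -0.82 for Bub1 (9.90 and 9.08) to -0.03 for Ube2c, with a median of -0.60 and 0 over 2-fold, while 55.6% of all genes were lower. Stmn1 at -0.36 lay inside the range of these genes of dividing cells but was lowered less than their median. Among the 29 genes only Ube2c, Plk1 and Cdc20 were lowered less than Stmn1. What part the lower signals of the list have in that of Stmn1 was not tested. Of 16 early differentiation markers 15 were measured, 12 higher and 3 lower, with a median of 0.64, while 41.6% of all genes were higher. Mef2c (6.25 and 7.69, difference 1.44, 2.71-fold higher), a transcription factor of differentiating muscle, Tnni1 (7.43 and 8.65, 2.33-fold higher), a troponin, and Mymk (8.91 and 10.05, 2.21-fold higher), which encodes the fusion protein myomaker, were over 2-fold higher. Myog (7.30 and 7.94) was higher within 2-fold, and Mymx (-0.12), Ckm (-0.11) and Cdkn1c (-0.35) were lower. The study called myogenin unchanged by array and RT-qPCR, and on that basis excluded precocious differentiation. It also listed Mef2c and Myh1 as higher, and read sarcomere terms among its raised genes as retained myogenic identity. In its differentiation assays Mll1 cKO myoblasts still fused into myotubes. Stmn2, Nptx1 and Bex1 were higher on the array on which most differentiation markers were higher and G2 and M phase genes lower. The relation of these 3 genes to either list was not tested.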

How the data were processed

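RNA of 1 control and 1 Mll1 cKO myoblast culture had been hybridised to 1 Affymetrix MoGene 1.0 ST array each. The authors processed the scans with RMA in Bioconductor, a method of background correction, quantile normalization and probe summarisation, and deposited the log2 signals of 35557 probe sets. The version and the genome build are not given in the sources used here. Of the probe sets, 21789 had 1 symbol in the platform annotation, 1621 several and 12147 none, 0 symbols needed updating, and only those with 1 symbol were named. A gene's value is the mean of its probe sets, and a difference is Mll1 cKO minus control. No column was left unused, and no detection calls were used.

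With 1 array per group no p-value, standard error or spread could be computed. The cut-off was 2-fold, as in the study's methods. Genes named were the 8 members, Kmt2a, each gene of 16 lists over 2-fold or, in a list with none, that with the largest difference, the 3 genes closest in difference to each member over 2-fold, and further examples and neighbours chosen after their values were seen. Members and lists were chosen with earlier results of these data known. A gene counted as not measured had no probe set with its symbol alone. Protein sequences were not analysed here.

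Alternatives were centring on the median, removal of a lowess trend on mean signal with a span of 0.3, quantile normalization, the probe set with the highest signal, a cut-off of 1.5-fold or of 3-fold, higher-array signals above 7 and a mean signal over 6. The scripts were tested on simulated data. Python 3.11.15 was used with numpy 2.4.6, pandas 2.3.3, scipy 1.17.1, statsmodels 0.14.6 and matplotlib 3.10.9.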

Additional observations from a re-analysis of the deposited data

How the results depend on the processing

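Across centring, lowess, quantile normalization and choice of probe set, all 28 recomputed values kept their sign and their side of the 2-fold cut-off. These values cover the 7 measured genes, although Stmn3, whose probe sets disagree, has no direction. For a gene with 1 probe set the choice of probe set could change nothing. The other settings rescaled the same 2 arrays, so the count is no measure of replication. The log2 difference ran from 2.85 to 2.93 for Stmn2, 2.04 to 2.12 for Nptx1, 1.36 to 1.57 for Bex1, -0.37 to -0.31 for Stmn1, 0.02 to 0.15 for Stmn3, -0.51 to -0.35 for Stmn4 and -0.45 to -0.26 for Nptx2. At 3-fold, or where the higher array had to exceed 7, 2 of the 7 were higher, as Bex1 dropped out. Of list genes, 9 were over 2-fold higher and 2 lower, against 29 and 21 at 1.5-fold and 1 and 1 at 3-fold. The share of all genes over the cut-off moved from 1.16% higher and 0.11% lower to 4.86% and 2.01% at 1.5-fold, 0.186% and 0.0251% at 3-fold, and 1.77% and 0.197% with a signal over 7, which tests fewer genes. The median of the early differentiation markers was 0.53 after quantile normalization and 0.79 with a mean signal over 6. With a mean signal over 6 the medians of these lists turned from below to above 0: pentraxin partners (0.19), neurotrophin signalling (0.088), RE1 genes (0.42), neuron markers (0.59) and endothelial, smooth muscle and immune markers (0.80), on 3 to 7 genes each. With the lowess trend removed, these 5 (0.078, 0.028, 0.053, 0.044 and 0.00077, in that order) and other pentraxins (0.027) turned likewise, and the cause was not tested. The RE1 genes and neuron markers share several genes, among them Tubb3, Nefl, Nefm and Nefh, so their medians are not separate results. The medians of tubulins, microtubule regulators, stathmin kinases and the REST complex, all near 0, changed sign under at least 1 scaling. Schwann cell and glia markers moved from 0.00 to 0.69 with a mean signal over 6. No pentraxin of the other list had a mean signal over 6. No paired analysis was possible because each group has 1 array, so replicates could not be left out either.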
